A study of Mus musculus with 8 samples.

Results

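The genes described here encode the myosin motor of the developing heart muscle, which is made of heavy chains and light chains. They include the gene of the kinase that phosphorylates the regulatory type of light chain. There were 8 genes: *Myh6*, *Myh7*, *Myh7b*, *Myl2*, *Myl3*, *Myl4*, *Myl7* and *Mylk3*. They were named by symbol from textbook knowledge of cardiac myosin, and each was found by its mouse Ensembl identifier among the 49315 genes of the deposited count files. All 8 passed the filter on low counts and were among the 17163 genes tested.

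RNA-seq had been performed on whole mouse hearts at embryonic day (E) 9.5, when the wild-type heart has looped and its chambers are forming. The study asked which genes are misexpressed, and above all which are no longer repressed, when the transcription factor Tbx20 cannot bind the TLE corepressors. Wild-type hearts (WT) were compared with hearts homozygous for a Tbx20 allele with 2 amino acid substitutions in its engrailed homology (EH1) domain, the domain that binds TLE (Tbx20EH1Mut). There were 4 libraries of each genotype, and each library was made from the poly-A RNA of 3 pooled hearts.

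The Tbx20EH1Mut allele came from genome editing of zygotes and was passed through the germline, so all cells of the embryo carry it, and the mutant embryos were described as small, with hearts that did not loop or form chambers properly. No treatment was given to either genotype. A whole E9.5 heart holds cardiomyocytes, endocardium, blood and some adjoining tissue, and in such bulk RNA fewer cells of a type cannot be told apart from less RNA per cell. The files held 33359322 to 49523086 counts per WT library and 36250675 to 38357025 counts per Tbx20EH1Mut library. A count table cannot show the amino acid substitutions themselves. *Tbx20* lay at 353 to 380 CPM (reads of a gene scaled to the size of its library) in WT and 215 to 317 CPM in Tbx20EH1Mut libraries.

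Muscle myosin is a hexamer in which a pair of heavy chains forms the motor heads and the rod, and each head binds an essential and a regulatory light chain. The mouse heart has an alpha heavy chain (*Myh6*), which cycles fast, and a beta heavy chain (*Myh7*), which cycles slowly. The beta chain predominates in the fetal ventricle, whereas the alpha chain marks the atria and takes over the mouse ventricle after birth. Among the light chains *Myl4* and *Myl7* are the atrial essential and regulatory chains, and *Myl3* and *Myl2* their ventricular counterparts. In the early heart tube the chamber isoforms are still expressed together and become confined to their chambers later.

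All cardiac libraries carried the sarcomere messages that define cardiomyocytes. The summed level of 10 cardiomyocyte markers that are not myosins (*Tnnt2*, *Tnni1*, *Tnnc1*, *Actc1*, *Actn2*, *Tpm1*, *Ttn*, *Myom1*, *Nebl* and *Ldb3*) was 22115 to 27582 CPM in WT and 19609 to 26642 CPM in Tbx20EH1Mut hearts, and 1 of the 10, *Actn2*, passed the test, as lower. Markers of other cell types were also read. By the rule given below, 24.6% of all genes tested were called, 12.5% as higher and 12.1% as lower. The sum of 7 foregut epithelium markers was 3.10, 54.9, 1.12 and 11.4 CPM in WT replicates 1 to 4 and 191, 157, 30.6 and 89.6 CPM in Tbx20EH1Mut replicates 1 to 4, and 3 of the 7 rose. The sum of 5 erythroid markers was 1754 to 4588 CPM in WT and 318 to 1024 CPM in Tbx20EH1Mut hearts, and all 5 fell. Of 5 endothelial markers 3 rose, while *Cdh5* and *Tek* were at -0.13 and -0.25 on the log2 scale and were not called. Of 3 smooth muscle markers none was called. Of 4 hepatic and visceral endoderm markers 1 was called, as higher, which is near the share of all genes. All 4 were nonetheless at log2 fold changes of 2.93 to 3.51. Their sum was 0.83 to 8.80 CPM in WT and 2.52 to 141 CPM in Tbx20EH1Mut hearts, with a wide spread. Of 6 somite and skeletal muscle markers 2 could be tested and 1 rose, with *Myod1* at or below 1 count in each library. The summed levels overlapped between the genotypes for each of these lists except the erythroid one. A fit with the foregut markers as a covariate is given further on. Since these markers lay mostly higher in Tbx20EH1Mut hearts, that fit cannot separate other cells from genotype. The part of these other cells in the myosin results was not tested.

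Against this background 3 of the 8 genes were called different between the genotypes, at an adjusted p under 0.05 and an absolute log2 fold change over 0.5 in the edgeR quasi-likelihood test. *Myh6* was lower in Tbx20EH1Mut hearts, and *Myl2* and *Myl3* were higher. Over all genes tested 24.6% were called, 12.5% as higher and 12.1% as lower. In 1 of the 8, *Myh6*, the CPM values of the 2 genotypes did not overlap, against 30.5% of all genes tested. The median log2 fold change of the 8 genes was 0.26, and that of all genes tested was 0.0048. With 8 genes, 1 call more or less moves such a count far, and what follows is about single genes and about the balance between the isoforms.

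**Figure D1:**
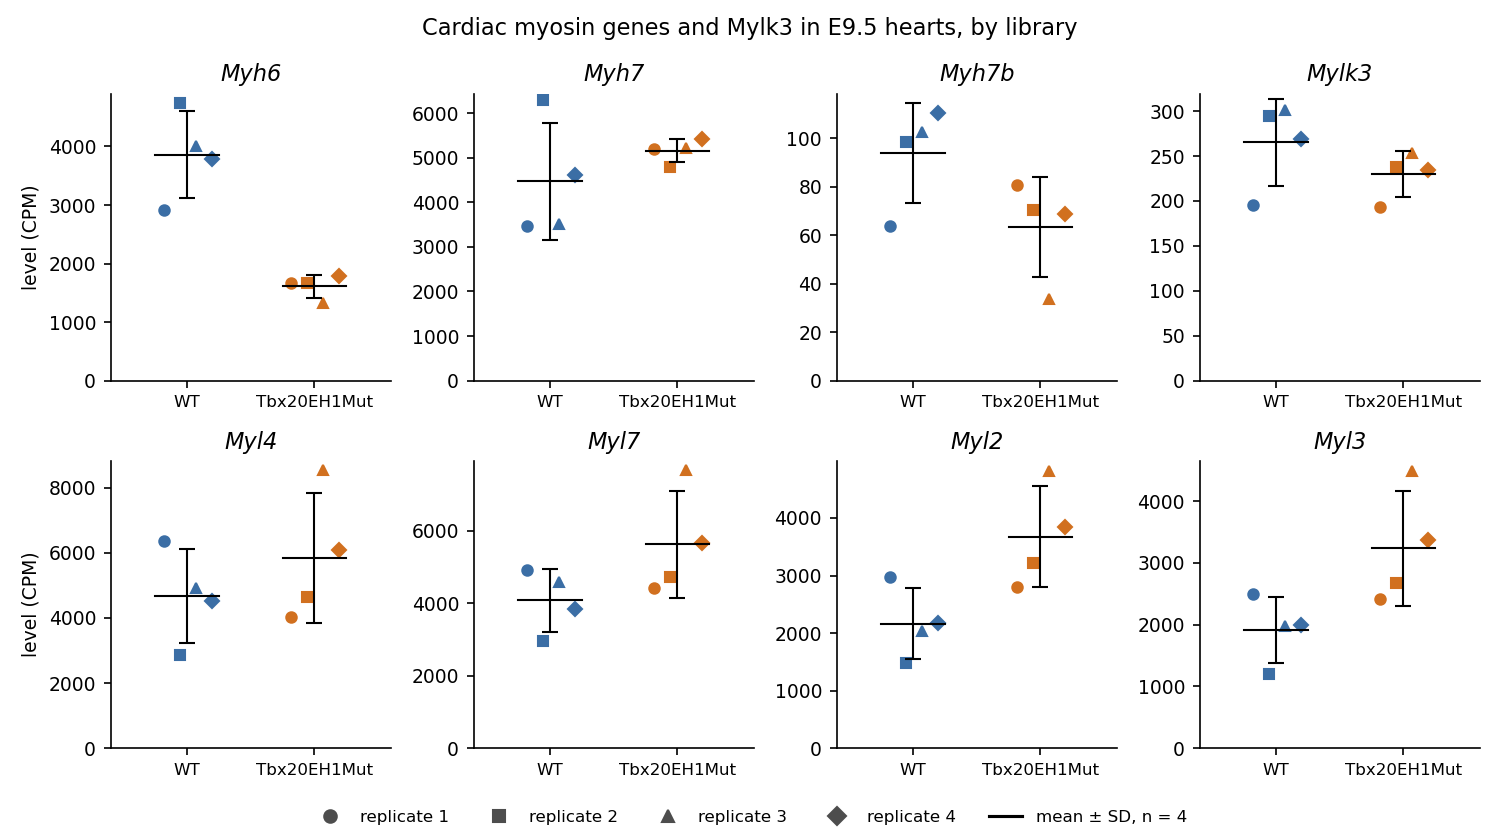
Level of each gene in every library (y axis, CPM after TMM scaling, from 0; x axis, genotype). Symbols mark the replicate number, and the black line and bar give the mean ± SD of 4 libraries; only *Myh6* separates the genotypes, with WT at 2919 to 4734 CPM and Tbx20EH1Mut at 1331 to 1779 CPM.

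The heavy chain genes *Myh6* and *Myh7* lie head to tail on chromosome 14. *Myh6* (ENSMUSG00000040752) spans chr14:54941981-54966927 and *Myh7* (ENSMUSG00000053093) spans chr14:54970688-54994634 in the mm10 coordinates of the files, both on the minus strand, with 3760 bases between them. *Myh7b* (ENSMUSG00000074652), a slow heavy chain of low level in heart, lies at chr2:155611212-155634307 on the plus strand. Each of the 3 hosts a microRNA within an intron of its principal transcript: *Mir208a* in intron 29 of *Myh6*, *Mir208b* in intron 31 of *Myh7* and *Mir499* in intron 19 of *Myh7b*. These sequences are shown because *Myh6* fell and *Myh7* was not called, whereas the microRNAs they host share a seed; that of *Myh7b* is shown beside them. The mature forms are from RefSeq (GRCm38.p6), written 5′ to 3′ with the seed (bases 2 to 8) in capitals.
miR-208a-3p (chr14:54949072-54949093, minus strand): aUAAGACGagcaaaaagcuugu
miR-208b-3p (chr14:54975710-54975731, minus strand): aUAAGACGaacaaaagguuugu
miR-499-5p (chr2:155622893-155622913, plus strand): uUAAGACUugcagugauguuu
The seed UAAGACG is shared by miR-208a-3p and miR-208b-3p, and miR-499-5p has UAAGACU. Mature microRNAs have no poly-A tail and were not measured in these libraries.

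*Myh6*, the alpha heavy chain, fell in the Tbx20EH1Mut hearts. Its level was 2919, 4734, 4000 and 3792 CPM in WT replicates 1 to 4 and 1665, 1673, 1331 and 1779 CPM in Tbx20EH1Mut replicates 1 to 4. Every Tbx20EH1Mut library lay below every WT library. The mean fell by 58.2%, with a log2 fold change of -1.26 (SE 0.168, edgeR adjusted p = 8.66e-04). Leaving out any 1 library gave -1.38 to -1.13, with an edgeR adjusted p of at most 0.00495. The libraries varied little within Tbx20EH1Mut (coefficient of variation 12.1%) and more within WT (19.3%).

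*Myh7*, the beta heavy chain, was not called different. It measured 3462, 6283, 3515 and 4607 CPM in WT and 5190, 4796, 5219 and 5430 CPM in Tbx20EH1Mut hearts. The WT libraries covered a wide range around the 4 Tbx20EH1Mut values, which were close together (coefficient of variation 29.6% in WT and 5.13% in Tbx20EH1Mut). The log2 fold change was 0.21 (95% interval -0.22 to 0.64, edgeR adjusted p = 0.433). Its direction was not stable between fits: it was at 0.38 (edgeR adjusted p = 0.0309) with an offset for the trend of each library with transcript length, and at -0.26 (edgeR adjusted p = 0.314) with the foregut markers as a covariate, both described further on. WT replicate 2 was the highest, and leaving it out gave 0.43 on the log2 scale (edgeR adjusted p = 0.0509). Leaving out either WT replicate 1 or WT replicate 3 gave 0.10 (edgeR adjusted p = 0.705 and 0.761). On a scale per length (TPM, counts per exon base scaled to the same total in every library), *Myh7* was at 894, 2282, 1000 and 1351 in WT and 1420, 1310, 1115 and 1357 in Tbx20EH1Mut hearts, again with WT replicate 2 above all others.

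*Myh7b* was far less abundant than the other heavy chains. It was at 63.9, 98.6, 102.5 and 110.4 CPM in WT and at 80.9, 70.3, 33.6 and 68.9 CPM in Tbx20EH1Mut libraries. WT replicate 1 lay among the Tbx20EH1Mut libraries, and Tbx20EH1Mut replicate 3 was the lowest of all. The log2 fold change was -0.56 (95% interval -1.14 to 0.01, edgeR adjusted p = 0.12). Without WT replicate 1 it was -0.71 (edgeR adjusted p = 0.0444), and without Tbx20EH1Mut replicate 3 it was -0.35 (edgeR adjusted p = 0.176). With the foregut covariate it was at -1.12 (edgeR adjusted p = 0.0399). By length *Myh7b* made up 1.25% ± 0.24 of the 3 heavy chain messages in WT and 1.10% ± 0.34 in Tbx20EH1Mut hearts (SD, n = 4).

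With *Myh6* lower and *Myh7* not called, the balance between the alpha and beta chains shifted. After division by the exon length in the files *Myh6* was 53.3, 50.5, 60.6 and 52.7% of the *Myh6* and *Myh7* messages in WT replicates 1 to 4. In Tbx20EH1Mut replicates 1 to 4 it was 30.3, 32.1, 25.7 and 30.7%. The groups were separated by more than the range within either. The mean went from 54.3% ± 4.4 to 29.7% ± 2.8 (SD, n = 4), a difference of -24.6 percentage points (exact two-sided permutation test over 70 arrangements, p = 0.0286, the smallest value that 4 against 4 libraries can give, and 0.0286 adjusted over the 3 pairs tested). Put as a ratio per exon length, there were 0.851 ± 0.14 *Myh7* messages per *Myh6* message in WT and 2.39 ± 0.35 in Tbx20EH1Mut hearts. A share within a library needs no scaling between libraries and both chains have messages of similar length, 6113 bases for *Myh6* and 6230 bases for *Myh7* in their principal GENCODE M21 transcripts. With these transcript lengths in place of the summed exon lengths (6347 and 8586 bases) the share was 47.2% ± 4.5 in WT and 24.1% ± 2.4 in Tbx20EH1Mut hearts.

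**Figure D2:**
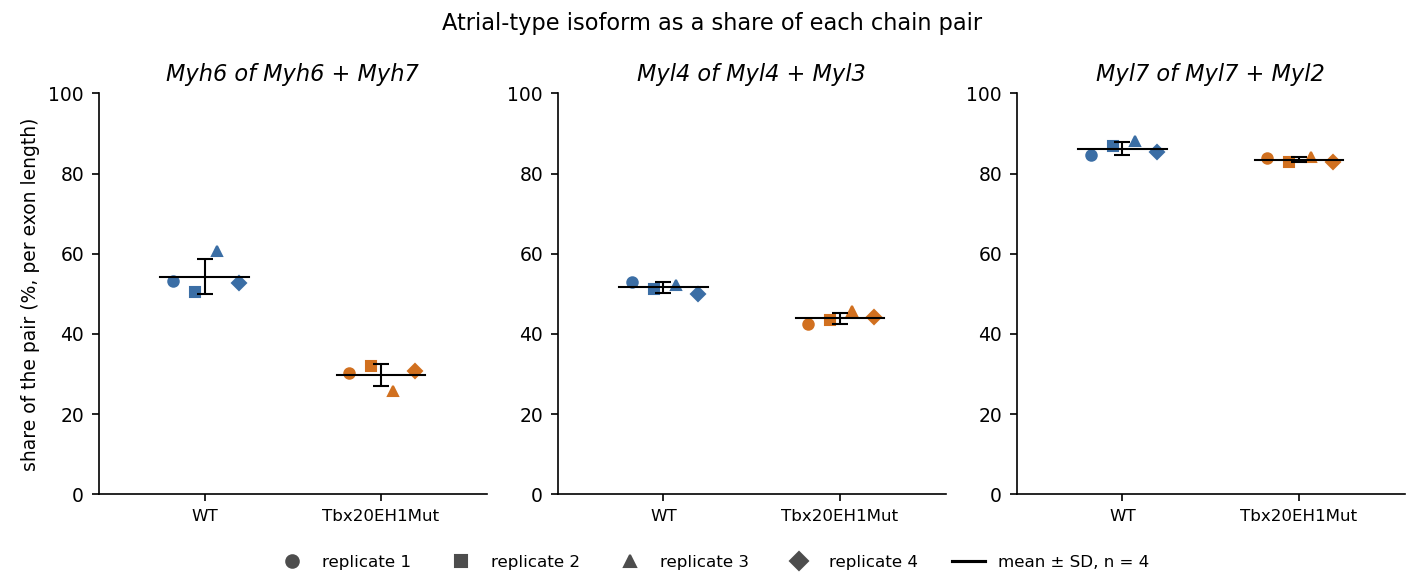
The atrial-type isoform as a percentage of its pair (y axis, per exon length, 0 to 100%) in each library, by genotype (x axis), with symbols for the replicate number and mean ± SD of 4 libraries in black. In each of the 3 pairs all Tbx20EH1Mut libraries lie below all WT libraries, by far the most for *Myh6* (54.3% to 29.7%) and the least for *Myl7* (86.3% to 83.5%).

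The alpha and beta chains are close paralogs, so part of their reads cannot be assigned by sequence. Of the 150-base windows of the principal *Myh6* transcript, 5.53% occurred without a mismatch in a *Myh7* transcript, and 22.6% of its 50-base windows did. No 150-base window was shared between any other members. How the authors' counting treated such reads is not given in the sources used here.

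Several loci within or against the heavy chain genes were also counted, and were looked at after the heavy chain values were known. *Mhrt*, an RNA transcribed antisense to *Myh7*, shares 463 exon bases with it, which is 5.39% of the *Myh7* exons, and the use of strand in counting was not given. Its counts totalled 1507 over the 8 libraries, whereas *Myh7* had at least 114088 counts in every library. *Mhrt* measured 4.52 to 8.49 CPM in WT and 1.28 to 4.46 CPM in Tbx20EH1Mut hearts (log2 fold change -1.05, SE 0.352, edgeR adjusted p = 0.0464). Reads over the *Mir208b* hairpin, an intron of *Myh7*, numbered 19, 50, 50 and 31 in WT and 9, 6, 4 and 4 in Tbx20EH1Mut libraries. The corresponding counts for *Mir208a*, an intron of *Myh6*, were 10, 25, 29 and 29 in WT and 9, 18, 0 and 6 in Tbx20EH1Mut libraries, and the genotypes overlapped. With the offset for transcript length *Mhrt* was at -1.47 (edgeR adjusted p = 0.0403). The *Mir499* hairpin had 5 reads in all 8 libraries together. No fold change is given for the hairpins, since their counts were so low in the Tbx20EH1Mut libraries, and they are not set against the exons of their hosts. These are small numbers of reads, and whether they came from unspliced messages was not tested.

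The essential light chains brace the lever arm of the motor. *Myl3* (ENSMUSG00000059741, chr9:110741861-110769798, plus strand), the ventricular essential chain, was at 2497, 1206, 1981 and 1994 CPM in WT and 2410, 2672, 4486 and 3375 CPM in Tbx20EH1Mut replicates 1 to 4. It rose in the Tbx20EH1Mut hearts by a log2 fold change of 0.75 (SE 0.249, edgeR adjusted p = 0.0451), although Tbx20EH1Mut replicate 1 lay below WT replicate 1. The call was close to the threshold: when single libraries were left out, the edgeR adjusted p rose to 0.05 or more in 6 of 8 fits, up to 0.115 without Tbx20EH1Mut replicate 3, where the log2 fold change was 0.56. With the offset for transcript length *Myl3* was at 0.45, under the fold threshold of 0.5.

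*Myl4* (ENSMUSG00000061086, chr11:104550663-104595753, plus strand), the atrial essential chain, was not called. Its level was 6359, 2874, 4920 and 4520 CPM in WT and 4030, 4651, 8530 and 6094 CPM in Tbx20EH1Mut hearts. The genotypes overlapped widely, and the lowest value belonged to WT replicate 2 and the highest to Tbx20EH1Mut replicate 3. The log2 fold change was 0.32 (95% interval -0.30 to 0.94, edgeR adjusted p = 0.404). It was at 0.02 with the offset for transcript length (edgeR adjusted p = 0.929) and at 1.24 with the foregut covariate (edgeR adjusted p = 0.00405).

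Within a library, however, *Myl4* and *Myl3* kept a narrow ratio that differed by genotype. *Myl4* was 52.9, 51.2, 52.3 and 49.98% of the pair per exon length in WT and 42.4, 43.4, 45.6 and 44.3% in Tbx20EH1Mut hearts. The SDs were 1.3 percentage points in both genotypes, and the groups did not overlap. The mean fell by 7.65 percentage points, from 51.6% to 43.9% (exact two-sided permutation test, p = 0.0286, adjusted 0.0286). The summed exon length of *Myl4* in the files, 4637 bases, is several times its principal transcript of 943 bases. With transcript lengths the same share was 70.6% ± 1.1 in WT and 63.9% ± 1.3 in Tbx20EH1Mut hearts, so its level depended on the length used. The separation could not depend on it, since a fixed length per gene leaves the order of the libraries unchanged.

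The regulatory light chains carry the phosphorylation site that tunes contraction. *Myl2* (ENSMUSG00000013936, chr5:122100951-122113472, plus strand), the ventricular form, was at 2975, 1476, 2032 and 2172 CPM in WT and 2807, 3220, 4823 and 3844 CPM in Tbx20EH1Mut hearts. It rose by a log2 fold change of 0.76 (SE 0.231, edgeR adjusted p = 0.0330). WT replicate 1 alone lay above a Tbx20EH1Mut library, replicate 1. Leaving out single libraries brought the edgeR adjusted p to 0.05 or more in 5 of 8 fits, up to 0.0889 without WT replicate 3, with log2 fold changes of 0.61 to 0.95 over the 8 fits. With the offset for transcript length *Myl2* was at 0.44, also under the fold threshold.

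*Myl7* (ENSMUSG00000020469, chr11:5896637-5898782, minus strand), the atrial regulatory chain, was the most abundant of the chains per length. Its level was 4919, 2963, 4601 and 3840 CPM in WT and 4427, 4720, 7695 and 5673 CPM in Tbx20EH1Mut libraries. WT replicate 1 exceeded Tbx20EH1Mut replicates 1 and 2, so the genotypes overlapped. The log2 fold change was 0.46, and its interval just reached 0 (-0.01 to 0.94, edgeR adjusted p = 0.125). The offset for transcript length turned it to -0.10 (edgeR adjusted p = 0.467), and the foregut covariate put it at 1.15 (edgeR adjusted p = 0.00152).

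*Myl7* made up 84.5, 86.9, 88.2 and 85.4% of the *Myl7* and *Myl2* messages per exon length in WT and 83.9, 82.9, 84.1 and 83.0% in Tbx20EH1Mut hearts. The highest Tbx20EH1Mut value, 84.1%, was less than 1 percentage point below the lowest WT value, 84.5%. The mean fell by 2.80 percentage points, from 86.3% ± 1.6 to 83.5% ± 0.6 (exact two-sided permutation test, p = 0.0286, adjusted 0.0286). It was the smallest of the 3 shifts. With transcript lengths (590 bases for *Myl7* and 889 bases for *Myl2*) the share went from 74.1% ± 2.6 to 69.7% ± 0.9.

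In all 3 pairs the atrial-type isoform held a smaller share in the Tbx20EH1Mut hearts. The numbers behind the shift differed between the pairs: for the heavy chains the atrial-type *Myh6* fell, whereas for both light chain pairs the ventricular-type gene rose, in calls that the offset for transcript length took below the fold threshold, and no change of the atrial-type gene was called. Over the 6 chamber chains together the atrial types made up 76.7% ± 2.0 of the messages in WT and 73.0% ± 0.8 in Tbx20EH1Mut hearts, a value set mostly by the abundant *Myl7*. With each pair given the same weight the difference was -11.7 percentage points, and from raw counts it was -7.81.

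*Mylk3* (ENSMUSG00000031698, chr8:85324303-85386345, minus strand) encodes the cardiac myosin light chain kinase, which phosphorylates the regulatory light chain. Its level was 195, 294, 301 and 269 CPM in WT and 193, 238, 254 and 234.5 CPM in Tbx20EH1Mut hearts. The Tbx20EH1Mut values lay within the range of WT save for the lowest, which was just under it, and the log2 fold change was -0.21 (95% interval -0.55 to 0.14, edgeR adjusted p = 0.331). Per length there were 0.462 to 1.19 *Mylk3* messages for every 100 of its substrates *Myl2* and *Myl7* in WT and 0.382 to 0.576 in Tbx20EH1Mut libraries, so the genotypes overlapped. This ratio sets a message of 3696 bases against messages of 590 and 889 bases. With the offset for transcript length *Mylk3*, *Myl7* and *Myl2* were at -0.05, -0.10 and 0.44 on the log2 scale.

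**Figure D3:**
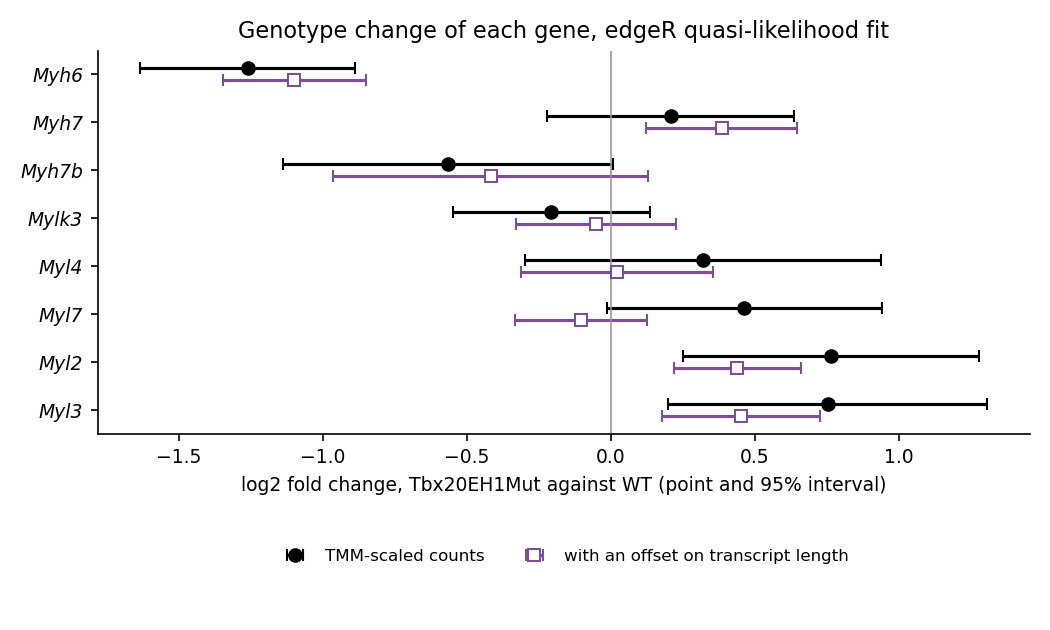
Log2 fold change of each gene between Tbx20EH1Mut and WT hearts (x axis) with its 95% interval, from edgeR on TMM-scaled counts (filled circles) and with an offset for transcript length in each library (open squares). *Myh6* is at -1.26 and -1.10, while *Myl7* moves from 0.46 to -0.10 and *Myh7* from 0.21 to 0.38 when the offset is used.

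The order of the genes by level was given by length, since longer messages yield more fragments. In WT hearts *Myl7* led at 17395 ± 1624 TPM, and it ranked 2 of all genes by mean TPM over the 8 libraries. It was followed by *Myl2* at 2773 ± 445, *Myl4* at 2505 ± 456 and *Myl3* at 2343 ± 365 TPM (SD, n = 4). Within each of the 4 WT libraries *Myl2* exceeded *Myl3*, whereas the place of *Myl4* between them changed from library to library. The heavy chains came next, with *Myh6* at 1597 ± 541 and *Myh7* at 1382 ± 631 TPM, and *Myh6* was the higher within each WT library. *Mylk3* at 161 ± 47 TPM and *Myh7b* at 36.8 ± 11 TPM were lowest.

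In Tbx20EH1Mut hearts *Myl7* again led, at 20236 ± 2751 TPM, followed by *Myl2* (4005 ± 496), *Myl3* (3351 ± 551) and *Myl4* (2647 ± 581), in this order within each of the 4 libraries. *Myh7*, at 1301 ± 132 TPM, was above *Myh6*, at 555 ± 114 TPM, in each of them. With the length of the principal transcripts *Myl4* moved up to 8917 ± 1640 TPM in WT and 9346 ± 2024 in Tbx20EH1Mut hearts, above *Myl2* (4403 and 6309) and *Myl3* (3701 and 5250), and the heavy chains in WT turned round on average, to 1199 ± 399 TPM for *Myh6* and 1376 ± 619 for *Myh7*. The place of *Myl4*, and the order of *Myh6* and *Myh7* in WT, thus rest on the length chosen.

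Together the 7 chains took 2.17% ± 0.09 of all counts in WT and 2.44% ± 0.33 in Tbx20EH1Mut hearts. Their summed level was 28032 ± 1532 TPM and 32117 ± 4126 TPM (SD, n = 4), with overlap. The summed TPM of *Myh6* and *Myh7* was 1914, 4609, 2539 and 2855 in WT and 2036, 1928, 1499 and 1959 in Tbx20EH1Mut replicates 1 to 4. These sums overlapped too, and WT replicate 2 stood well above the other 3 WT libraries.

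The heavy and light chains did not vary in step from library to library. Heavy chains were 6.55, 17.6, 8.85 and 10.7% of all heavy and light chain TPM in WT replicates 1 to 4 and 7.41, 6.51, 4.04 and 5.96% in Tbx20EH1Mut replicates 1 to 4. WT replicate 2 was highest and Tbx20EH1Mut replicate 3 lowest. In WT replicate 2 *Myh6* and *Myh7* were at their highest and all 4 light chains at their lowest, and in Tbx20EH1Mut replicate 3 the 4 light chains were at their highest and *Myh6* and *Myh7b* at their lowest.

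The same libraries stood apart in the balance of long against short messages over all genes. The median log2 deviation of 2256 genes with transcripts over 5000 bases, minus that of 1719 genes with transcripts under 1500 bases, was -0.26, 0.90, 0.08 and 0.15 in WT and -0.04, -0.16, -0.45 and -0.21 in Tbx20EH1Mut replicates 1 to 4. Myosin heavy chain messages are long and light chain messages are short, so a trend of this kind touches the 2 classes in opposite directions. How much of it came from the RNA or library preparation and how much from the hearts cannot be told apart.

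When each library was given an offset for its own trend with transcript length, *Myh6* stayed lower, at a log2 fold change of -1.10 (edgeR adjusted p = 1.67e-04). *Myl2* and *Myl3*, at the lower values given above, had edgeR adjusted p of 0.00870 and 0.0195. *Myh7b* was at -0.42 and *Mylk3* at -0.05 (edgeR adjusted p = 0.212 and 0.779). In the other fit the mean log2 level of the foregut markers in each library was a covariate, and *Myh6* was at -1.60 (edgeR adjusted p = 7.23e-04), *Myl2* at 1.43 and *Myl3* at 1.55 (edgeR adjusted p = 0.00242 and 0.00135). Among Tbx20EH1Mut libraries the foregut sums ran in the same order as the balance of long against short messages. Among WT libraries replicate 2 was the highest in both. This covariate therefore cannot separate foregut cells from the trend with transcript length or from genotype. The direction of *Myh6*, *Myl2* and *Myl3* was the same in the 3 fits, and that of *Myh7* and *Myl7* was not. The pair shares need no such offset where both messages are of like length, as with *Myh6* and *Myh7* and with *Myl4* and *Myl3* (943 and 937 bases).

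**Figure D4:**
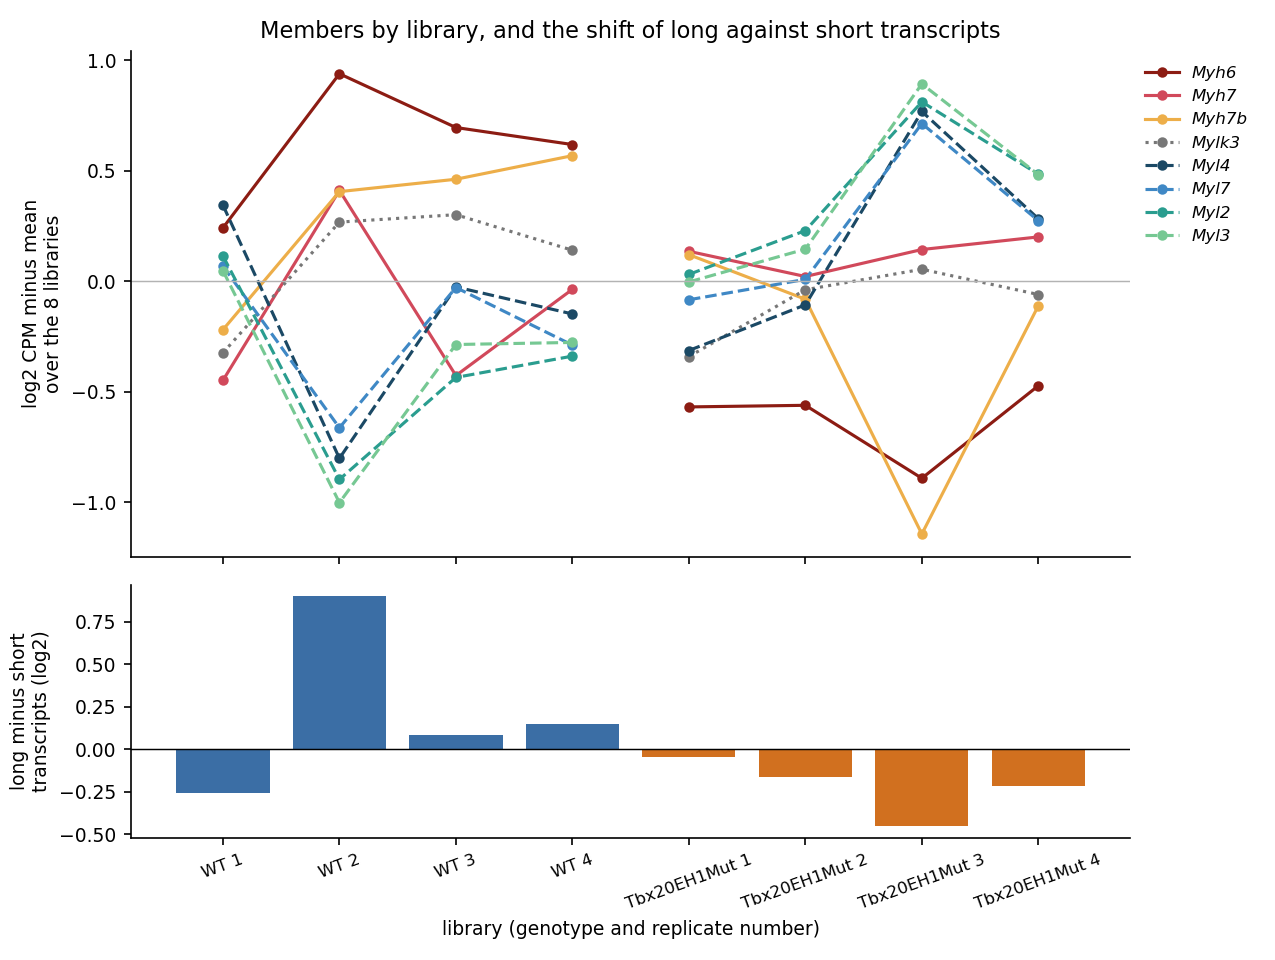
Upper panel: log2 CPM of each gene minus its mean over the 8 libraries (y axis), by library (x axis), with heavy chains as solid lines, light chains dashed and *Mylk3* dotted. Lower panel: median log2 deviation of long minus short transcripts over all genes; WT replicate 2 (0.90) and Tbx20EH1Mut replicate 3 (-0.45) are the extremes in which heavy and light chains part most.

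Profiles over the 8 libraries were also compared. As the measure of likeness, the root mean square difference between log2 CPM profiles centred on their means was used, among 10533 genes whose mean was 5 CPM or more. *Myl2* and *Myl3* were the closest of the members to each other, at 0.084, although they lie on different chromosomes. *Myl4* and *Myl7* differed by 0.15. *Myh6* and *Myh7*, neighbours in the genome, differed by 0.77, more than *Myh7* differed from any of the 4 light chains (0.50 to 0.61), and *Myh6* was farthest from *Myl3*, at 1.14. The measure also grows with the size of a profile's own deviations, 0.66 for *Myh6*, 0.28 for *Myh7* and 0.37 to 0.53 for the light chains. *Myh7* lay farther from each light chain than its own 0.28, so this order does not show that *Myh7* followed them. The genes most like *Myh6* were *Kank4* (0.077), *Tbc1d2b* (0.096) and *Cox15* (0.10). Those most like *Myh7* were *Vps13b*, *Zfp516* and *Atp2b4*, and those most like *Myh7b* were *Nkd1*, *Tpcn2* and *Msto1*. *Fam174a* came closest to *Myl2* (0.052) and was among the 3 closest to *Myl3*. *Lsm8*, *Hint1* and *Cox7b* led for *Myl4*, *Hist1h2bc*, *Hacd1* and *Ube2d1* for *Myl7*, and *Snap23*, *Plekha1* and *Oxr1* for *Mylk3*. These likenesses describe 8 libraries that share genotype and the trend with transcript length.

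To set the chains against the rest of the cardiomyocyte, their TPM was expressed as a percentage of the summed TPM of the 10 markers named above. *Myl2* was 13.7, 8.89, 9.31 and 9.84% of that sum in WT and 18.7, 17.5, 23.2 and 19.6% in Tbx20EH1Mut hearts, without overlap. *Myl3* went from 8.79% ± 1.6 to 16.5% ± 2.9, and *Myl7* from 65.2% ± 8.3 to 99.99% ± 16, both without overlap. *Myh6* fell from 5.95% ± 2.0 to 2.74% ± 0.59, again without overlap. The mean log2 differences of *Myl2*, *Myl3* and *Myl7* were 0.93, 0.92 and 0.61, or 0.75, 0.73 and 0.42 with *Tnnt2* alone as the reference. In CPM *Myl2*, *Myl3* and *Myl7* overlapped between the genotypes. The reference sum was lower in every Tbx20EH1Mut library than in any WT library, which raises such ratios. The share of all genes that separate on this scale was not computed. These ratios carry no correction for transcript length. In the fit with that offset *Myl2*, *Myl3* and *Myl7* were at log2 fold changes of 0.44, 0.45 and -0.10.

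*Myh7*, *Myl4*, *Myh7b* and *Mylk3* overlapped between the genotypes on this scale. Their mean log2 differences were 0.41, 0.47, -0.45 and -0.04, and single libraries moved them. *Myh7* was at 0.69 without WT replicate 2 and at 0.27 without either WT replicate 1 or 3, and *Myh7b* at -0.11 without Tbx20EH1Mut replicate 3 and -0.69 without Tbx20EH1Mut replicate 1. *Mylk3* took either sign, from -0.21 without WT replicate 1 to 0.12 without WT replicate 2. With *Tnnt2* alone as the reference *Myh7* was at 0.22, *Myl4* at 0.28 and *Mylk3* at -0.22. The sum used as the reference was itself lower in Tbx20EH1Mut hearts on the TPM scale, at 18072 to 22093 against 24767 to 28518 TPM in WT, so the ratios show change relative to these markers only.

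**Figure D5:**
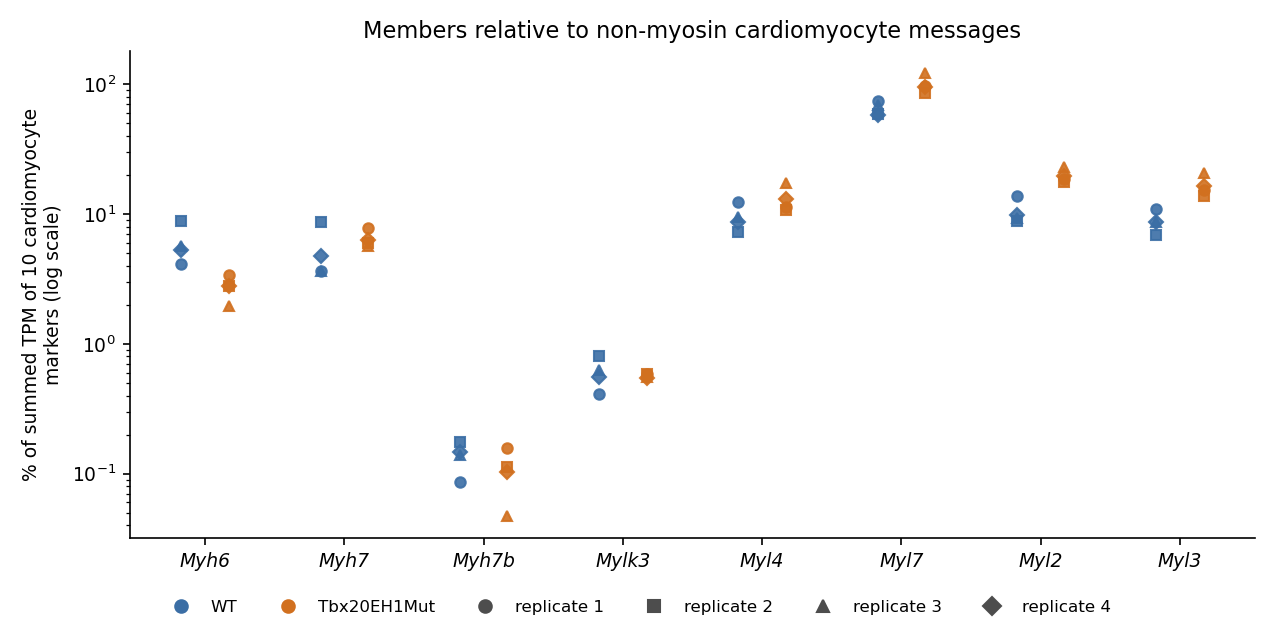
TPM of each gene as a percentage of the summed TPM of 10 cardiomyocyte markers that are not myosins (y axis, log scale) in each library; colours give the genotype and symbols the replicate number. *Myl2*, *Myl3* and *Myl7* lie higher and *Myh6* lower in every Tbx20EH1Mut library than in any WT library, and the other 4 genes overlap. The reference sum was itself lower in every Tbx20EH1Mut library, and in CPM only *Myh6* separates the genotypes.

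The sequences just upstream of the genes are shown for the members that hold the MCAT site described next. In the 250 bases before the RefSeq start nearest to the 5′ end of each gene, 5 short motifs of cardiac promoters were searched on both strands: the T-box half-site AGGTGT, the TATA box TATAAA, the GATA site AGATAA, the MCAT site GGAATG, which TEAD factors bind, and the E-box CANNTG. All 8 genes had such a window. The MCAT letters were in 4 of the 8 windows, against 12.6% of 32851 windows of the same length. AGATAA was in 2 windows (9.99% of all), TATAAA in 1 (12.4%), CANNTG in 7 (66.2%) and AGGTGT in none (11.8%). These tallies rest on the start chosen, since *Myh7*, *Myl2* and *Mylk3* each have another RefSeq start. The window of the other *Myh7* start held no MCAT match, that of *Mylk3* held 1 and that of *Myl2* held AGATAA. The *Myl2* window lies 7762 bases upstream of the gene as the files give it, and the starts used for *Myl3* and *Mylk3* lie 21817 and 5304 bases inside the spans in the files. A match is a description of these letters, and no match says nothing about a factor outside the window.
*Myh6* (chr14:54966608-54966857, minus strand): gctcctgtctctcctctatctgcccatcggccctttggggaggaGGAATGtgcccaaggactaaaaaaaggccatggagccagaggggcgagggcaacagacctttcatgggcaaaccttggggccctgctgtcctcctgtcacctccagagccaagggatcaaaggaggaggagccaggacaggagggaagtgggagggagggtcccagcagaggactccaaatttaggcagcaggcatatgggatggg
*Myh7* (chr14:54994627-54994876, minus strand): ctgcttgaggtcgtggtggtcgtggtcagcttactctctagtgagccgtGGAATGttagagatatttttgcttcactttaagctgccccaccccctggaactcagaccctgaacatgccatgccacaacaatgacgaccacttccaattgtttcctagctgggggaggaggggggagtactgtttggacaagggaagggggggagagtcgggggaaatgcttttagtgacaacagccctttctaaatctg
*Myl3* (chr9:110763428-110763677, plus strand): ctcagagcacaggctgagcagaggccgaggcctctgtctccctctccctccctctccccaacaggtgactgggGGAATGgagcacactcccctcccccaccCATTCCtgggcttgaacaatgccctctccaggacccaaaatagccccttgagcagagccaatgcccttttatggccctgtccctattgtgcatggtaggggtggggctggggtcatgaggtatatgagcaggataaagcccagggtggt
*Myl7* (chr11:5898783-5899032, minus strand): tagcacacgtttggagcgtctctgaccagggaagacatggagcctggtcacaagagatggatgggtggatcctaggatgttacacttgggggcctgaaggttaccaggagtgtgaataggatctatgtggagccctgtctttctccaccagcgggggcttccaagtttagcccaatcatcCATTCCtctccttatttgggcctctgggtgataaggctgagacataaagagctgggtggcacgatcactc
Capitals mark GGAATG or, on the other strand, CATTCC. The matches begin 206 bases upstream of the start in *Myh6*, 201 in *Myh7*, 177 and 149 in *Myl3* and 70 in *Myl7*. The 4 genes that hold the letters were of both kinds, since *Myh6* fell, *Myl3* rose and *Myh7* and *Myl7* were not called. *Tead1*, which encodes a factor that binds this site, was at a log2 fold change of 0.01 (SE 0.145, edgeR adjusted p = 0.962).

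The myosin chains of other muscles, and genes that act on myosin, give a frame for the cardiac set. The counts of each list stand beside the 24.6% called over all genes tested. Of 11 such genes 4 could be tested and 2 fell, neither with overlap between the genotypes. These were the fast skeletal light chains *Mylpf*, at 49.996 ± 11.6 CPM in WT and 20.4 ± 8.0 CPM in Tbx20EH1Mut (log2 fold change -1.29, SE 0.266, edgeR adjusted p = 0.00662), and *Myl1*, at 313 ± 61 and 169 ± 41 CPM (log2 fold change -0.89, SE 0.204, edgeR adjusted p = 0.0106). The skeletal heavy chains *Myh1*, *Myh2*, *Myh3*, *Myh4*, *Myh8* and *Myh13* reached at most 15 counts in any library, *Myh15* had none, and these 7 were not tested.

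Among the 7 chains of non-muscle myosin II, which serves cell shape and division, only *Myl6*, an essential light chain, rose (log2 fold change 0.90, SE 0.274, edgeR adjusted p = 0.0330), and it overlapped between the genotypes. The heavy chains *Myh9* and *Myh10* were at -0.55 and -0.10, with edgeR adjusted p of 0.235 and 0.774.

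Of 10 genes for other light chain kinases and the myosin phosphatase 8 were tested and 2 were called, a share like that of all genes. *Dapk3*, a kinase that can phosphorylate regulatory light chains, rose from 110 ± 20 to 187 ± 41 CPM (log2 fold change 0.76, SE 0.178, edgeR adjusted p = 0.0113). *Ppp1r12b*, the myosin-targeting subunit of the phosphatase in heart and skeletal muscle, fell from 64.9 ± 15.7 to 35.1 ± 2.4 CPM (log2 fold change -0.89, SE 0.165, edgeR adjusted p = 0.00413). The other 6 tested, among them the smooth muscle kinase *Mylk*, were not called.

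Of 7 genes for myosin folding and turnover 3 fell and none rose, where 12.1% of all genes tested were called lower. *Unc45b*, the muscle myosin chaperone, fell by 0.54 on the log2 scale (SE 0.143, edgeR adjusted p = 0.0191), and *Smyd1*, a muscle methyltransferase needed for sarcomere assembly, fell by 0.72 (SE 0.119, edgeR adjusted p = 0.00245). *Trim54*, a sarcomeric ubiquitin ligase, fell by 0.87 (SE 0.193, edgeR adjusted p = 0.00932). The genotypes did not overlap in any of the 3, whereas the related ligases *Trim55* and *Trim63* were at -0.16 and -0.02 (edgeR adjusted p = 0.311 and 0.919).

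Last, 11 transcription factors known to act on chamber myosin genes were read, and 3 were called, a share near the 24.6% of all genes. *Tbx5*, a T-box factor of the atria and left ventricle, fell from 102 ± 4.6 to 58.6 ± 6.9 CPM (log2 fold change -0.80, SE 0.110, edgeR adjusted p = 9.92e-04). *Irx4*, a ventricular homeobox factor known to favour *Myl2* and *Myh7* type programmes over atrial ones, fell from 110 ± 15 to 71.8 ± 7.3 CPM (log2 fold change -0.62, SE 0.13, edgeR adjusted p = 0.00758). *Nr2f2*, which specifies atrial identity, rose from 67.4 ± 14.1 to 111 ± 11 CPM (log2 fold change 0.72, SE 0.154, edgeR adjusted p = 0.00789). In each of the 3 the genotypes did not overlap. *Gata4*, a zinc finger factor of heart muscle, was at -0.49 on the log2 scale (edgeR adjusted p = 0.0319), just short of the fold threshold. *Srf*, which drives sarcomere genes, was at -0.30 without overlap between the genotypes (edgeR adjusted p = 0.0706), and *Nr2f1*, an atrial factor related to *Nr2f2*, was at -0.50 (edgeR adjusted p = 0.105). The ventricular repressor *Hey2* and the cardiac factors *Nkx2-5* and *Mef2c* were at 0.14, -0.06 and 0.13 on the log2 scale (edgeR adjusted p = 0.440, 0.799 and 0.689).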

How the data were processed

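Per the labels, poly-A RNA was sequenced from 4 WT and 4 Tbx20EH1Mut libraries of E9.5 hearts. The authors deposited raw read counts per gene for each library, with gene coordinates and exon length. The submitters' processing notes name Trimmomatic 0.36, STAR 2.5.2b and the GRCm38 (mm10) build. The counting tool and its use of strand are not given in the sources used here. Symbols came from GENCODE M21, which gave one to 48970 of the 49315 gene identifiers. Total counts per library ran from 33359322 to 49523086.

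Counts were filtered and TMM-scaled, and the genotypes were compared with edgeR 4.0.16 in R 4.3.3 by its quasi-likelihood test, with Benjamini-Hochberg adjustment over 17163 genes. Calls needed an adjusted p under 0.05 together with an absolute log2 fold change over 0.5, as in the study's methods; larger folds were used elsewhere in the study. The steps were tested on simulated data. TPM used the exon length in the deposited files. Pair shares were compared by an exact permutation test. p-values measure the spread between libraries of pooled hearts.

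All 8 members were named. From 5 lists of related genes, up to 4 called genes with the largest change and a mean of at least 5 CPM were named, and 3 genes most like each member. Further genes of these lists (*Tead1*, *Myh9*, *Myh10*, *Mylk*, *Trim55*, *Trim63*, *Hey2*, *Nkx2-5*, *Mef2c*, *Gata4*, *Srf*, *Nr2f1*) and the loci *Mhrt*, *Mir208a*, *Mir208b* and *Mir499* were named after their values were seen. Members, lists and motifs were chosen with earlier results of these data known. Alternatives covered scaling, filters, other tools, a foregut covariate, a replicate block and each library left out; the transcript length offset and transcript lengths were added after seeing the data.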

Additional observations from a re-analysis of the deposited data

How the results depend on the processing

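The fall of *Myh6* held under 20 of 20 alternatives, from -1.60 to -1.10 on the log2 scale. Over all genes 4218 were called, and 1220 when edgeR's glmTreat tested against a log2 fold change of 0.5. Without 1 library in turn 2836 to 5667 genes were called, and *Myh6* ranged from -1.38 to -1.13, *Myh7* from 0.10 to 0.43, *Myh7b* from -0.71 to -0.35, *Myl2* from 0.61 to 0.95, *Myl3* from 0.56 to 0.90, *Myl4* from 0.08 to 0.50, *Myl7* from 0.28 to 0.57 and *Mylk3* from -0.33 to -0.12. With glmTreat *Myl2* (0.76) and *Myl3* (0.75) lost their calls (edgeR adjusted p = 0.244 and 0.281). With the mean log2 level of the foregut markers as a covariate *Myh7* was at -0.26 and *Myh7b* at -1.12, *Myl4* at 1.24 and *Myl7* at 1.15, the last 3 past the adjusted p of 0.05. Scaling to the cardiomyocyte markers put *Myl7* at 0.60, past that threshold, but shifted the median of all genes to 0.15 and made 78.4% of the calls higher, against 50.9%. Upper-quartile scaling made 61.6% higher and glmTreat 61.1%. The transcript length offset put *Myh7* at 0.38 and *Myl7* at -0.10, and brought *Myl2* and *Myl3* to 0.44 and 0.45, under the fold threshold. The cause of these moves was not tested.

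The replicate numbers showed no clear pairing: deviations of same-numbered libraries from their group means correlated at -0.51, 0.45, 0.08 and 0.12. Such deviations also hold the trend with transcript length, so these correlations cannot exclude a pairing. With the replicate block 3681 genes were called, and *Myl2* was at 0.78 (edgeR adjusted p = 0.0508). As same-numbered pairs the shares of *Myh6*, *Myl7* and *Myl4* differed by -24.6, -2.80 and -7.65 percentage points, each with an exact sign-flip p of 0.125, the smallest that 4 pairs can give. Without 1 library these shares ranged from -25.9 to -22.5, -3.37 to -2.15 and -8.20 to -7.14. The atrial share of the 6 chains differed by -3.76 percentage points, by -7.81 from raw counts and by -11.7 as a mean over the pairs. Relative to the cardiomyocyte markers, leaving out 1 library gave 0.27 to 0.69 for *Myh7*, 0.33 to 0.61 for *Myl4*, -0.69 to -0.11 for *Myh7b* and -0.21 to 0.12 for *Mylk3*. With 4 libraries per genotype, the intervals of *Myh7*, *Myl4* and *Myl7* still hold changes of up to 0.64, 0.94 and 0.94 on the log2 scale.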
